A study of Homo sapiens with 6 samples.

Results

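The genes described here are the partners of the CBFA2T3-GLIS2 fusion and their closest relatives: the co-repressor genes CBFA2T3, CBFA2T2 and RUNX1T1 and the zinc finger genes GLIS1, GLIS2 and GLIS3. Their members in the data are the regions of the authors' deposited table of reduced representation bisulfite sequencing (RRBS) that overlap the RefSeq span of one of the 6 genes or lie within 10 kb of it, 50 of 35130 regions in all. Levels were compared between M07e cells with a CRISPR knockout of DNMT3B (3 libraries) and control M07e cells labelled WT (3 libraries). M07e is an acute megakaryoblastic leukemia cell line grown with GM-CSF, and both groups share that background. The labels do not say whether a knockout library is 1 clone, a pool or a separate culture, so any spread between libraries may be technical. The table gives 1 mean per group and region, under the column names M07e_3883 and M07e_WT. No label uses the first name, which was taken as the knockout because it is the other genotype of the study, and every direction below rests on that reading. Levels in single libraries and read depth are therefore unknown, so that a replicate error could be given for none of the values, and regions of 1 gene are not replicates.

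CBFA2T3 (also ETO2 or MTG16), CBFA2T2 and RUNX1T1 (ETO) form the ETO family. These proteins do not bind DNA in a sequence-specific way: they are brought to genes by E proteins, TAL1 and GATA factors and in turn bring nuclear co-repressors and histone deacetylases. CBFA2T3 holds back differentiation genes in erythroid and megakaryocytic progenitors, RUNX1T1 is the partner of RUNX1 in another leukemia fusion, and CBFA2T2 acts in pluripotent and germ cells. The GLIS proteins are Krüppel-like zinc finger factors related to the GLI and ZIC families. GLIS2 is known from kidney maintenance, GLIS3 from the pancreatic beta cell and the thyroid, and GLIS1 from reprogramming to pluripotency. In the leukemia CBFA2T3, as the 5′ partner, is joined to the zinc fingers of GLIS2 by an inversion within chromosome 16. M07e is known to carry the fusion. Reads from the rearranged and the normal chromosome cannot be told apart in the table. DNMT3B adds methyl groups to cytosines in CpG that carried none, at CpG islands and in transcribed gene bodies.

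Every level, difference and q given here is a value of the authors' deposited table, and a difference is knockout minus control. Of the 50 regions, 1 was called, where called means an authors' q under 0.01 and an absolute difference of at least 25 percentage points. It lay in CBFA2T3 and was higher in the knockout. Over all 35130 regions, 6.74% were called, 4.57% higher and 2.17% lower in the knockout, beside 1 of 50 here. All 2368 called regions of the table were among the 24323 without a group mean of 0, 9.74% of those. No region with a group mean of 0 was called. At the 6 genes 36 of the 50 regions were without such a mean, and the called one was among them. A count of 1 is too small to read as a departure from either share. The median level over the 50 regions was 32.0% in the knockout and 6.30% in the control, and the median difference was 16.1 points, beside 17.4 points over the whole table. The deposited difference was above 0 in 36 of the 50 regions (72.0%) and below 0 in 14, and above 0 in 68.4% of all regions of the table. By gene, the median difference was 26.9 points at CBFA2T3 (26 regions), 17.1 at GLIS3 (7), 1.90 at GLIS2 (6), 1.44 at CBFA2T2 (1), -0.90 at RUNX1T1 (5) and -1.18 at GLIS1 (5). These medians moved with the choice of regions: without those with a group mean of 0 the median was 13.8 points at CBFA2T3, 0.012 at RUNX1T1, -10.6 at GLIS1 and 2.50 over all 6 genes. With regions inside the genes alone it was 29.5 at GLIS1, 4.28 at GLIS3 and 1.24 at GLIS2.

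**Figure D1:**
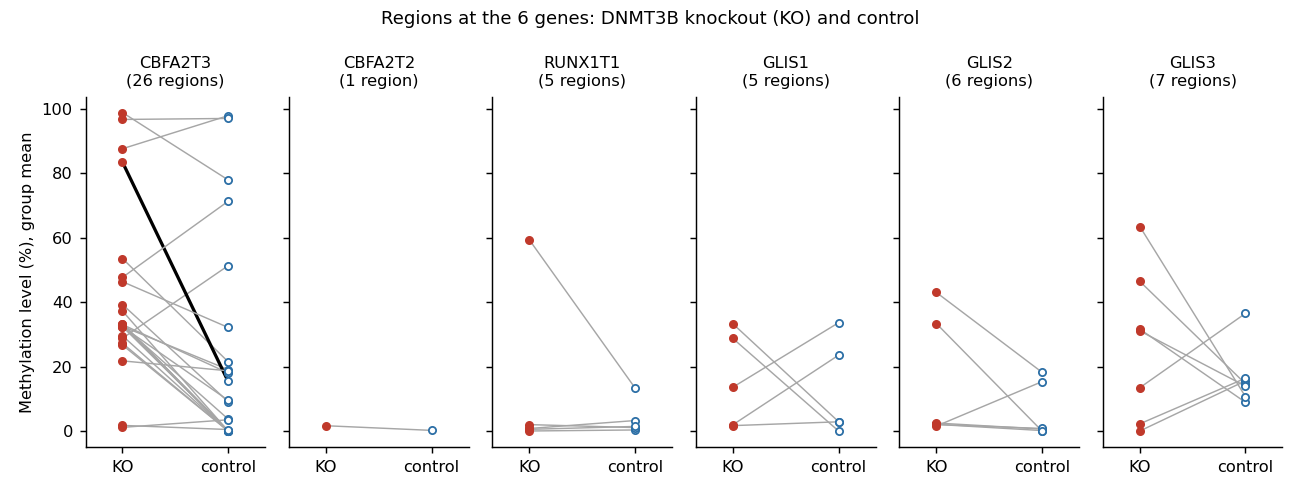
Methylation level (percent, mean of the 3 libraries of a group) of each region at the 6 genes in DNMT3B knockout (KO, left, filled) and control cells (right, open), with a line for each region and a thick black line for the called one. Most CBFA2T3 lines are higher in the knockout, while at RUNX1T1 and GLIS2 most points are near 0 in both groups.

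The called region had a start site of CBFA2T3 beside it. RefSeq places this inner start at base 88941350 of chromosome 16 on the minus strand (GRCh38.p14), 35.9 kb inside the annotated 5′ end of the gene and 66.5 kb from its 3′ end. The 250 bases upstream of the inner start are printed first below because the called region lies 97 to 129 bases downstream of that start. No region of the table overlaps these 250 bases, so no level is given for their CpG. The second sequence is the 250 bases upstream of an inner GLIS3 start, which hold a region of the table. The third is the whole of another GLIS3 region, just inside the annotated 5′ end of GLIS3 and upstream of the neighbouring gene SLC1A1. All are RefSeq sequences written in the direction of the gene.
CBFA2T3 upstream: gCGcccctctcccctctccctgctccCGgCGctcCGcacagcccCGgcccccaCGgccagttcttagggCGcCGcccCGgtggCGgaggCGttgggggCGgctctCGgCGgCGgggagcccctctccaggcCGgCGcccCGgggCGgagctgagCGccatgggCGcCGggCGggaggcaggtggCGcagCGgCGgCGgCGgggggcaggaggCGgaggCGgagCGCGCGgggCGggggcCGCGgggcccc
GLIS3 upstream: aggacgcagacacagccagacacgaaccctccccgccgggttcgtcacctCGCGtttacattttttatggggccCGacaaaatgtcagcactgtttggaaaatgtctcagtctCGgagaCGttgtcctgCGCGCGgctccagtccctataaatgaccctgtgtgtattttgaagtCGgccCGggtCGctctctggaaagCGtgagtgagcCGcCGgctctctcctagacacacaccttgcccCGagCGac
SLC1A1 upstream: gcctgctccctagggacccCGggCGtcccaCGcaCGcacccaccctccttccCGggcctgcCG
The capitals mark CpG, in the second sequence those within the region of the table. The first is chr16:88941351-88941600 on the minus strand and holds 36 CpG, and 95.2% of the 34943 RefSeq windows of that length upstream of a start hold fewer. The second is chr9:4298497-4298746 on the minus strand, with 21 CpG, 16 of them in capitals, and 69.8% of windows hold fewer. The third is chr9:4490326-4490388 on the plus strand, with 6 CpG. The letters CCGG, where the MspI of the protocol cuts and which read the same on both strands, occur 6 times in the first sequence, 3 times in the second and 2 times in the third, and 58.4% of the upstream windows hold them at least once.

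CBFA2T3 held 26 of the 50 regions, 25 of them inside the gene (chromosome 16, 88874858 to 88977207) and 1 above it. The called region (88941221 to 88941253) lay 97 to 129 bases downstream of the inner start, where it also overlaps the annotated lncRNA gene LOC100129697. Its level was 83.4% in the knockout and 15.4% in the control over 13 sites, a difference of 68.0 points with a q of 4.52e-06 in the authors' deposited table. Whether sites without reads entered these means as 0 was not tested. Over all 35130 regions, a larger gain was listed for 100, 59 of them called, and a lower q for 291. Worked back from the authors' Mann-Whitney p, a knockout point lay above a control point in 83.2% of the pairs of points, with ties split equally. This takes each site as entered once per library, 39 points in each group. It also takes the p as a normal approximation without tie correction. The regions next to it, 767 bases upstream and 1217 bases downstream, were at 33.3% and 26.7% in the knockout and at 0 in the control. Their q was 1, as in all 12 regions at the 6 genes with a control mean of 0. That q therefore cannot be set against the q of the called region. By the levels alone, the gain at the called region was larger than at its neighbours on both sides. On the reading of the Mann-Whitney p set out further below, 5 of 15 knockout points were above 0 at each neighbour. Whether the points at 0 there were unmethylated sites or sites without reads was not tested, and the order of the gains depends on it.

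Upstream of the inner start, toward the outer 5′ end, 7 regions of the gene ranged from nearly unmethylated to nearly fully methylated, and their median difference was 11.5 points. The one closest to the inner start (88942020 to 88942044), already given as a neighbour of the called region, was at 33.3% in the knockout and 0 in control cells. The region closest to the outer end (88976664 to 88976764) was at 1.74% in the knockout and 0.455% in control cells. The next one inward (88973099 to 88973135) was at 1.13% in the knockout and 3.48% in the control. Another, 5.21 kb inside the gene, was at 21.8% in the knockout and 18.7% in the control. These 3 differed by at most 3.08 points in either direction. About 20 kb inside the gene, 3 regions that follow each other closely (88956982 to 88957127) had unlike levels. They were at 96.6%, 98.8% and 46.3% in the knockout, against 97.0%, 77.9% and 32.1% in the control. For the first of these 4 sites the deposited difference is 11.5 points, while the deposited means differ by -0.31, so its direction is uncertain. Across this upstream stretch, 6 of 7 regions had a deposited difference above 0, beside 68.4% of all regions, and none was called.

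Downstream of the inner start, through the body of the gene to its 3′ end, 16 of 18 regions were higher in the knockout, beside 68.4% of all regions of the table. Without the called one, the other 17 regions had median levels of 33.0% in the knockout and 0 in control cells, with differences between -22.5 and 37.2 points, and their lowest q was 0.241. Of these 17, 9 had a control mean of 0, and no region of the table with such a mean was called. The lowest q thus speaks only for the others. The 8 regions in the last 20 kb of the gene that the table covers, 80 to 100 kb from the outer 5′ end, were all higher in the knockout. Their levels were between 29.5% and 53.5% in the knockout and between 0 and 21.5% in the control. Among these the region with the highest knockout level (88896785 to 88896860, 9 sites) was at 53.5% in the knockout and 21.5% in the control (q = 0.366). The 2 lower regions of the gene body were at 28.8% in the knockout and 51.3% in the control (88917529 to 88917622), and at 87.6% in the knockout and 97.8% in the control (88929313 to 88929354). No region of the table lay between 10 and 20 kb or between 70 and 80 kb from the outer end. In the flank, 6783 bases above the gene, a region of 7 sites (88983990 to 88984081) was at 47.7% in the knockout and 71.3% in control cells, the largest loss at CBFA2T3, with a q of 0.0147 and a difference of -23.6 points that both miss the thresholds.

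**Figure D2:**
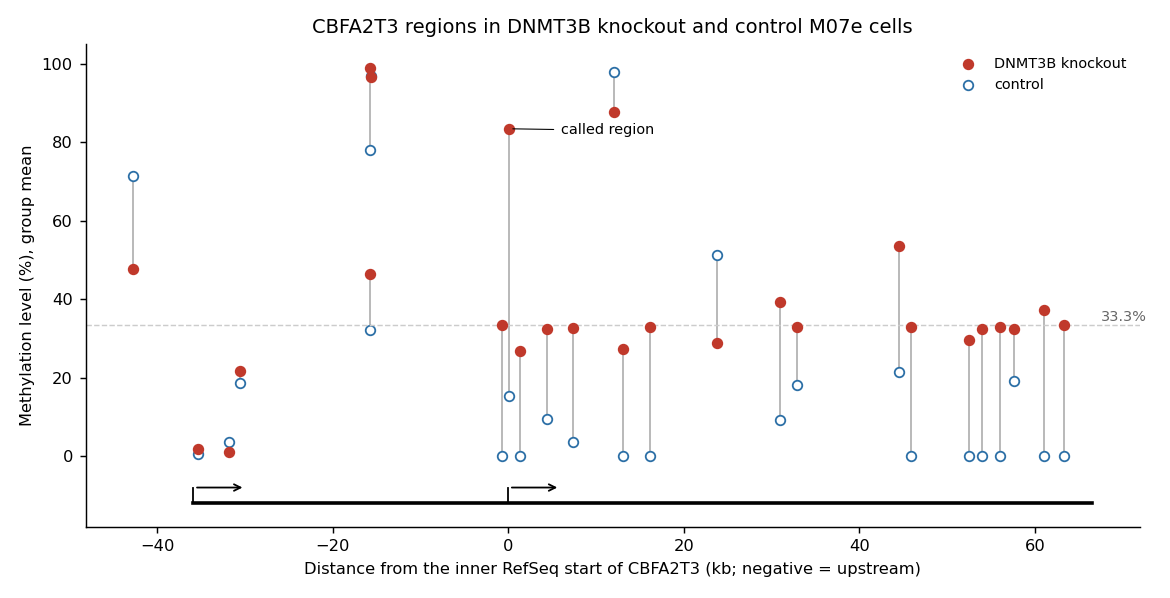
Methylation level (percent, group mean) of the 26 CBFA2T3 regions against their distance in kb from the inner RefSeq start, with upstream to the left, knockout points filled and control points open, and the gene drawn below with an arrow at its outer 5′ end and another at the inner start. The called region at the inner start is at 83.4% in the knockout and 15.4% in the control, and most knockout points downstream of it lie near 33.3% (dashed), with 9 of the 18 control points there at 0.

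Of the 22 gains in CBFA2T3, 9 had the same form. In 10 of the 26 regions (38.5%) the control mean was exactly 0, beside 26.0% of all regions. With all control points at 0, the authors' Mann-Whitney p fixes how many knockout points were above 0, if each site entered once per library and the p came from a normal approximation without tie correction. Under that reading the count came out whole, within 0.02 of a point, in 8623 of 9149 such regions of the table (94.3%) and in each of the 12 at the 6 genes. In 9 of the 10 CBFA2T3 regions the number of knockout points above 0 equalled the number of sites. In the region nearest the 3′ end (88878086 to 88878112), for example, 7 of 21 knockout points were above 0, with a mean of 100%, and the other 14 were at 0. In the 9 regions the points above 0 averaged between 80.0% and 100%. The other region, with 13 sites (88880219 to 88880524), had 15 of 39 points above 0, which averaged 96.8%. On that reading, a knockout mean near 33.3% in these regions was an average of points near 100% and points at 0, not a level that all points shared. Over the table the same equality held in 7578 of the 9149 regions with a control mean of 0 (82.8%), beside 9 of 10 at CBFA2T3. As a share of every region it was 34.6% at CBFA2T3 and 21.6% over the table, with 1 of 5 regions at GLIS1 and 1 of 6 at GLIS2. Which library the points came from, and whether a 0 stands for an unmethylated site or for a site without reads, was not tested. The meaning of a 0 was not tested for points of the other regions either, the called one included. The 12 regions with a control mean of 0 all had a q of 1.

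**Figure D3:**
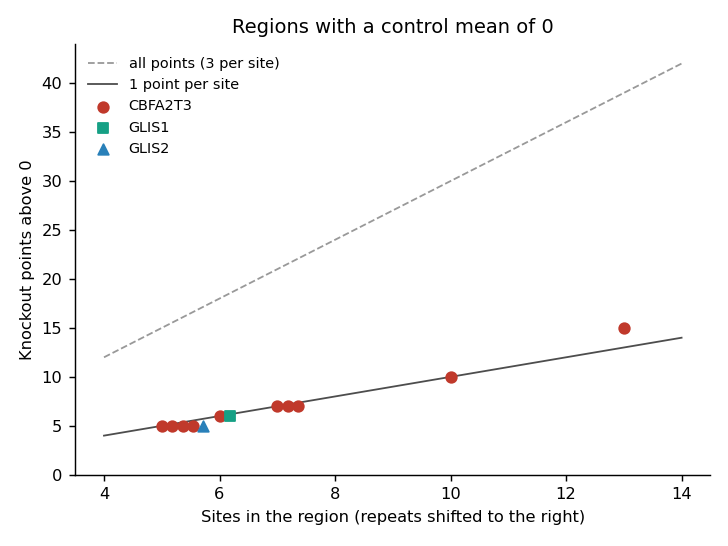
Number of knockout points above 0, recovered from the authors' Mann-Whitney p, against the number of sites for the 12 regions at CBFA2T3, GLIS1 and GLIS2 with a control mean of 0. The solid line marks 1 point per site and the dashed line all 3, and 11 of the 12 regions lie on the solid line.

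RUNX1T1, whose product gave the ETO family its name, and CBFA2T2 were measured mostly near their ends. RUNX1T1 (chromosome 8, 91954967 to 92103385) had 5 regions of 5 sites each, all inside the gene. The 4 in the last 2 kb below its upper end were between 0 and 1.98% in the knockout and between 0.317% and 3.24% in the control. The region deeper in the gene (92062702 to 92062708) was at 59.3% in the knockout and 13.3% in the control, a difference of 45.9 points that did not reach the q threshold (q = 0.125). The deposited difference of 1 RUNX1T1 region at 0 in the knockout was -1.30 points, while its means differ by -0.32. CBFA2T2 (chromosome 20, 33490096 to 33650030) had a single region (33489868 to 33489872), 224 bases below the gene, at 1.63% in the knockout and 0.187% in the control. Its 5 sites fill its 5 bases, because the table counts the cytosines of a CpG on both strands. Apart from the deeper RUNX1T1 region, neither gene showed a level above 3.24% in either group.

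GLIS2, the 3′ partner of the fusion (chromosome 16, 4314761 to 4339595), had 3 regions inside the gene and 3 in its flanks. The lowest q of the gene in the authors' deposited table was at 4316275 to 4316406, near its lower end. There 11 sites were at 1.53% in the knockout and 15.3% in the control, a difference of -13.8 points (q = 0.0012) that stayed under the difference threshold. The largest difference inside the gene ran the other way, with 43.0% in the knockout and 18.2% in the control (4322531 to 4322659, q = 0.686). Levels were under 5% in both groups in 3 regions: 668 and 7016 bases below the gene, and inside it where it overlaps GLIS2-AS1 (4327820 to 4328042). The last region, 9383 bases above GLIS2 in PAM16, was at 33.3% in the knockout and 0 in the control, with 5 of 15 knockout points above 0.

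GLIS1 and GLIS3 each had regions of opposite direction around a RefSeq start. At GLIS1 this start is the annotated 5′ end of the gene. At GLIS3 it is an inner start, about 192 kb inside the 5′ end. At GLIS1 (chromosome 1, minus strand), 10 sites 318 to 414 bases upstream of the start at 53739164 were at 13.6% in the knockout and 33.6% in the control (53739482 to 53739578). Their q of 0.00824 in the authors' deposited table passed its threshold and their difference of -20.0 points did not. The next region, 12 sites a further 12 bases upstream, was at 1.67% in the knockout and 2.85% in the control. Downstream, 23 sites inside the gene (53737760 to 53738142), the most of any region at the 6 genes, were at 33.3% in the knockout and 2.90% in the control, with a q of 0.0153. The largest loss at GLIS1 was 4583 bases below the gene, at 1.93% in the knockout and 23.5% in the control (q = 0.477). Deep in the gene, a region of 6 sites (53606812 to 53606942) was at 28.7% in the knockout and 0 in the control.

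At GLIS3 (chromosome 9, minus strand), 5 sites 478 to 487 bases downstream of the start at 4298496 were at 63.4% in the knockout and 10.7% in the control (4298009 to 4298018). This difference of 52.8 points was the second largest gain at the 6 genes, with a q of 0.0425 in the authors' deposited table. The region in capitals in the second sequence above, 3 to 200 bases upstream of the start (4298499 to 4298696), was at 46.4% in the knockout and 14.6% in the control over 11 sites (q = 0.240). Farther out, 891 to 1341 bases upstream, 18 sites where GLIS3 overlaps GLIS3-AS2 were at 13.4% in the knockout and 36.5% in the control (q = 0.193). Levels near this start were thus higher in the knockout close to it and lower in the knockout beyond it, but none of the 3 regions was called. The region of the third sequence lies 0.077 kb inside the annotated 5′ end of GLIS3. It is also 80 to 142 bases upstream of a start of the glutamate transporter gene SLC1A1. Its level was 2.22% in the knockout and 16.4% in the control (q = 0.204). Within SLC1A1, 781 bases upstream of the GLIS3 5′ end, 16 sites were at 31.1% in the knockout and 13.9% in control cells. The other 2 regions, side by side in the gene body, were at 0 and 31.6% in the knockout, against 15.6% and 8.89% in the control.

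**Figure D4:**
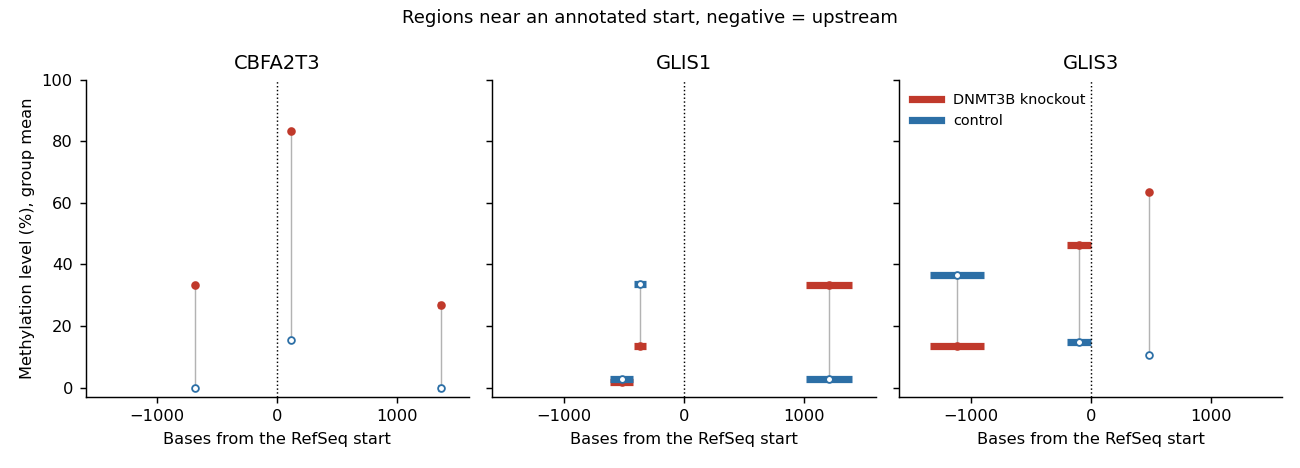
Methylation level (percent, group mean) of regions near a RefSeq start of CBFA2T3, GLIS1 and GLIS3, with the distance in bases from the start (negative is upstream), knockout in red and control in blue. The start shown is the annotated 5′ end at GLIS1 and an inner start at CBFA2T3 and GLIS3. Bars span the longer regions and points mark the middle of each region. At GLIS1 and GLIS3 the regions downstream of the start are higher in the knockout, while the region 318 to 414 bases upstream at GLIS1 and the one 891 to 1341 bases upstream at GLIS3 are lower in the knockout.

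Regions at an extreme level in both groups were counted at the 6 genes and in the whole table. Both groups were under 5% in 11 of the 50 regions (22.0%, beside 13.4% of all regions), 4 of them at RUNX1T1, 3 at GLIS2, 2 at CBFA2T3 and 1 each at CBFA2T2 and GLIS1. Both groups were over 75% in 3 regions, all in CBFA2T3 (6.0% of the 50, beside 1.13% of all regions). Under other call rules the count at the 6 genes was 3 at a difference of at least 10 points (8.6% of all regions) and 3 at a q under 0.05 (10.5%). It was 1 at a difference of at least 40 points (3.42%), at a q under 0.001 (3.31%) and where the deposited Kolmogorov-Smirnov p, after Benjamini-Hochberg adjustment, replaced the q (4.12%). It was also 1 among regions with at least 5 sites (6.79%) and among those without a group mean of 0 (9.74%). The region at the inner start of CBFA2T3 was called under each of these rules.

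**Figure D5:**
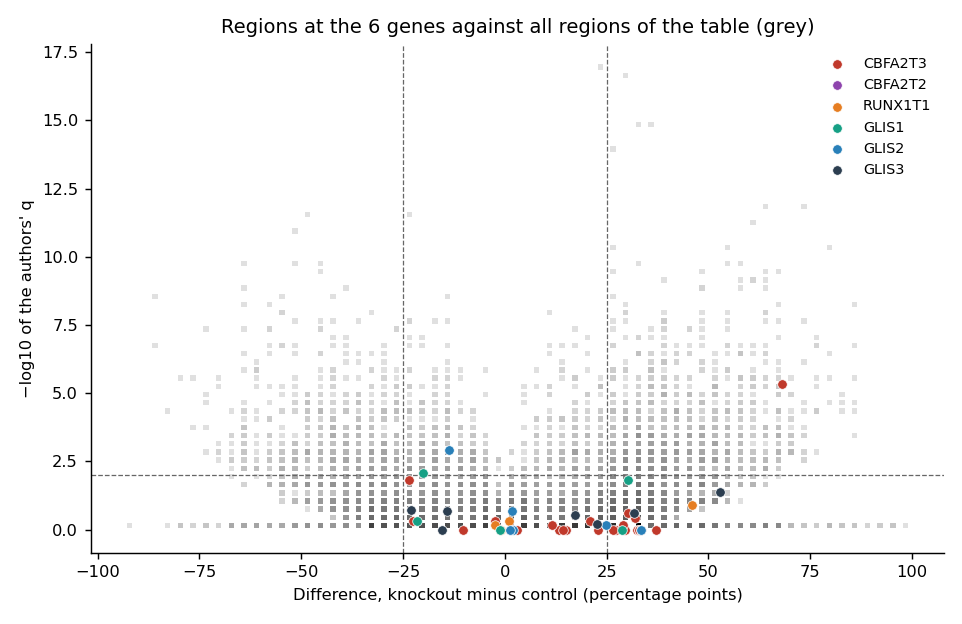
Difference in percentage points, knockout minus control, against −log10 of the authors' q for the 50 regions at the 6 genes (coloured) over all 35130 regions (grey, counted in bins, darker where more regions lie), with dashed lines at the thresholds. The CBFA2T3 region with a difference of 68.0 points stands alone among the coloured points beyond both thresholds.

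Genes that work with the ETO and GLIS factors were read in the same table. Of 22 partner and co-repressor genes of the ETO family, 20 had a region, and 4 of their 85 regions were called, 3 higher and 1 lower in the knockout (4.71%, beside 6.74% of all regions). The lower one was at GATA2, a factor of blood progenitors, at 8.33% in the knockout and 49.4% in the control (chromosome 3, 128497339 to 128497631, q = 3.3e-05), and another GATA2 region was called higher, at 33.3% in the knockout and 1.91% in the control. A region at TCF3, which encodes an E protein, was at 55.6% in the knockout and 12.8% in the control (q = 0.00484). All 8 GLI and ZIC relatives of the GLIS genes had a region, and 5 of their 58 regions were called (8.62%), 3 higher and 2 lower. A region of 53 sites near both ZIC2 and ZIC5, which share a locus and encode developmental zinc finger factors, was at 70.4% in the knockout and 38.5% in the control (q = 9.88e-06). GLI2, which encodes a mediator of Hedgehog signalling, had a called gain, at 84.5% in the knockout and 26.2% in the control (q = 0.000597), and both called losses of this list. The losses were at 24.8% in the knockout and 67.0% in the control (q = 0.00121), and at 36.5% in the knockout and 71.4% in the control (q = 0.00829). Of 12 genes known to be high in CBFA2T3-GLIS2 leukemia 11 had a region, and 6 of their 42 regions were called (14.3%), 5 higher and 1 lower. They included GATA3, a T-cell and trophoblast factor, with 42 sites at 44.8% in the knockout and 8.47% in the control (q = 1.38e-05), and BMP4, a secreted signalling protein, at 89.0% in the knockout and 53.7% in the control (q = 7.43e-05). The called loss was at HPSE2, a relative of heparanase, at 6.67% in the knockout and 77.9% in the control over 5 sites (q = 0.0015), the largest difference among the called regions of that list. The median difference was 12.8 points for the first list, 23.2 for the second and 6.66 for the third, beside 17.4 over the table.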

How the data were processed

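DNA methylation was measured by RRBS in 6 M07e libraries. MspI fragments with methylated adapters were bisulfite converted and amplified, per the labels' protocols. Bismark, methylKit, Trimmomatic, FastQC and HISAT2 are listed with hg38 in the submitters' processing notes, without a role. Which program made the table of regions is not stated there or in the labels. For each region the authors deposited both groups' levels in percent, the signed mean difference as a score in percentage points, the count of sites, a q-value, and p-values from a Mann-Whitney and a 2-dimensional Kolmogorov-Smirnov test. The depth is unknown. These p-values compare points of sites rather than libraries, so they do not measure the spread between libraries, and no new test was run.

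Regions were assigned to genes by RefSeq spans (GRCh38.p14), which give no exons, so regions are not placed in exons or introns. Strands and starts came from the RefSeq windows of 250 bases before to 50 after a start, which 4 of the 6 genes had. Coordinates are 1-based and 1 base above the half-open reading of the file, because the first and last base then fell in a CpG in all 2871 regions inside such windows, against 1122 without the shift. No region there had more sites than cytosines in CpG on both strands, while 2080 had more sites than CpG, by more than 1, so a site is a cytosine on either strand and both strands of a CpG can count. The deposited difference departed from that of the means by over 0.01 points in 2 of the 50 regions. The genes, the lists and the rule for named regions (each called one, and per gene the one with the most sites, the lowest q, the largest gain and the largest loss) were chosen with earlier results of these data known. The scripts were tested on simulated data. Python 3.11.15, pandas 2.3.3 and scipy 1.17.1 were used.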

Additional observations from a re-analysis of the deposited data

How the results depend on the processing

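No paired analysis was possible because the table holds 1 mean per group, and for the same reason no library could be left out. The count of called regions was 3 in place of 1 at a difference of at least 10 points (adding GLIS1 and GLIS2 losses) and 3 at a q under 0.05 (adding GLIS1 and GLIS3 gains). With a flank of 50 kb it was 2, both at CBFA2T3, the added region (88843614 to 88844272) having a difference of 51.5 points. The count stayed at 1 under the other alternatives. The median difference over all members, 16.1 points, was 22.8 for regions inside genes, 15.1 with the wider flank, 17.1 with at least 5 sites, 2.50 without regions with a group mean of 0, and 14.8 as a mean weighted by sites. For CBFA2T3 (26.9) these were 27.2, 27.2, 27.2, 13.8 and 22.7. Inside genes the median was 29.5 for GLIS1, 1.24 for GLIS2 and 4.28 for GLIS3, and CBFA2T2 had no region. With the wider flank it was 9.49 for GLIS1 and 3.61 for CBFA2T2. Without means of 0 it was 0.012 for RUNX1T1, -10.6 for GLIS1, 1.88 for GLIS2 and 19.9 for GLIS3. Weighted by sites, the mean was 8.44 for RUNX1T1, 9.79 for GLIS1, 4.38 for GLIS2 and 7.62 for GLIS3. With the difference of the deposited means, an alternative chosen after seeing the data, RUNX1T1 had -0.32. The sign for RUNX1T1 and GLIS1 thus depended on the setting. The cause of these changes was not tested, beyond the fewer or added regions that each setting uses. The unknown depth and the single mean per group limit every value.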
